A study of Mus musculus with 8 samples.

Results

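The 10 genes described here encode proteins that build, sulfate or cut the extracellular matrix: Ecm1, Emilin2, Fn1, Fstl1, Papss2, Papss1, Hpse, Mmp12, Mmp14 and Timp2. They were selected on the day 11 signals, around genes with large rises in knockout cells, and are 10 of the 18782 genes measured. Their day 11 genotype differences are therefore a description, with no test. All 10 were found, each by a single probe set with a single gene symbol. Affymetrix arrays were run on lung macrophages of C57BL/6 mice in 4 groups of 2 arrays, each from the pooled cells of 2 mice. KO mice carried CD11c-Cre and loxP-flanked Pparg alleles (CD11cCre/PPARg fl/fl), so that Pparg is deleted in cells that express CD11c, and WT mice carried the same flanked alleles (PPARg fl/fl) without Cre. The groups were KO at day 2 after birth, WT at day 2, KO at day 11 and WT at day 11. Day 2 cells were sorted as precursors of alveolar macrophages, CD45+ F4/80+ and high in CD11c, from a gate intermediate for Siglec-F and CD11b or a gate low in Siglec-F and high in CD11b. Day 11 cells were CD45+, Siglec-F+, high in CD11c and in autofluorescence, with high CD11b in KO and low CD11b in WT mice. Deletion and sort gate therefore cannot be told apart at day 11, and how the day 2 gates fell on the genotypes was not given in the sources used here.

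PPARγ, the product of Pparg, is a nuclear receptor that alveolar macrophages need to mature, and these cells live on the airspace side of the lung's elastic scaffold. Matrix turnover in tissue rests on a balance of secreted glycoproteins, metalloproteinases and their TIMP inhibitors. Sulfate enters matrix sugars only after it is activated to the donor PAPS by the PAPSS enzymes, sulfotransferases then place it on chains such as heparan sulfate, and heparanase cuts those chains.

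Upstream sequence is shown for 2 genes with large genotype differences at both ages, Ecm1 and Mmp12, and for the paralogs Papss2 and Papss1, which lay on opposite sides of WT. Each is the 250 bases before a RefSeq start site on GRCm38.p6, written 5′ to 3′ on the strand of the gene, in lower case with motif matches in capitals. The start sites used for Ecm1, Papss2 and Papss1 lie inside the annotated gene. The Ecm1 window therefore falls wholly within its gene, and those of Papss2 and Papss1 reach into theirs. The windows are chr3:95739570-95739819 on the minus strand for Ecm1, chr9:7344147-7344396 on the plus strand for Mmp12, chr19:32595465-32595714 on the plus strand for Papss2 and chr3:131564518-131564767 on the plus strand for Papss1.
Ecm1: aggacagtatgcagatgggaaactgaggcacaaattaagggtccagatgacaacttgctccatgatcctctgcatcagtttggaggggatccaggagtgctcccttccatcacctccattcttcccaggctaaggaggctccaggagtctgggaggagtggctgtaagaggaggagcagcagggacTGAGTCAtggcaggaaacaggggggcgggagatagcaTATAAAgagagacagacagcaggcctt
Mmp12: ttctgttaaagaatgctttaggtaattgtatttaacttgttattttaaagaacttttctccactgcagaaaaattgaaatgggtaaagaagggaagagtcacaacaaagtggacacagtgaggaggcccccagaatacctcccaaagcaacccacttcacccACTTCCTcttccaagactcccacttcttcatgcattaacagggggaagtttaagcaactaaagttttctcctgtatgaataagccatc
Papss2: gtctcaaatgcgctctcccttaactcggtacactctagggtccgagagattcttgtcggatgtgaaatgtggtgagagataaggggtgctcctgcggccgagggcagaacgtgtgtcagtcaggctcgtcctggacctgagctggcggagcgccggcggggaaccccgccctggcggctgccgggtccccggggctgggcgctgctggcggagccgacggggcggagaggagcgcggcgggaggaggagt
Papss1: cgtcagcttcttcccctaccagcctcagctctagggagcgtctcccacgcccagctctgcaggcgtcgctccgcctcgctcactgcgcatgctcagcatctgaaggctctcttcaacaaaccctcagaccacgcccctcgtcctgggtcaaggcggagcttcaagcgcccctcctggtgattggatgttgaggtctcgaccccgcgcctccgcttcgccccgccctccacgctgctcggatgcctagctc
The capitals in Ecm1 are an AP-1 site and a TATA box, which begin at positions -64 and -27 from the start site, and those in Mmp12 are an ETS core on the opposite strand, at position -88. The Papss2 and Papss1 windows held no match to any motif searched and were both rich in G and C, at 67.6% and 65.2%, where the median of all windows was 52.4%. Motifs were searched on both strands in 32851 RefSeq windows of this length, 13 of them from 9 of the 10 genes. Fn1 had no window in the table. TATAAA was found in 1 of the 13 windows and in 12.4% of all windows, and the AP-1 site TGANTCA in 2 of the 13 (Ecm1 and a second Mmp12 start) and in 6.75% of all. The ETS core AGGAAGT was found in 1 (7.69% of all), the STAT site TTCNNNGAA in 1, a second Emilin2 start (7.02%), and the GC box GGGGCGGGG in 1, Mmp14 (10.4%). The direct repeat bound by PPAR and RXR (0.03% of all), the E-box CACGTG (6.02%) and the NF-kB site (0.14%) had no match in the 13. No matches overlapped in the windows shown. A match is a description of letters, and a missing match says nothing about the factor.

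The signals are log2 values after RMA, with a median of 5.35 on every array. Signals of different probe sets are not read as relative amounts of transcript. Percentiles among all genes describe signal alone, and sums of linear signals over a list weigh the brightest probe sets most. Across genes, r was 0.9942 to 0.9983 between the replicates of each group and 0.9675 to 0.9937 between groups. Pparg signal was 10.55 and 10.74 in KO and 10.89 and 11.01 in WT at day 2, and 11.32 and 11.36 in KO and 11.18 and 11.13 in WT at day 11. It fell at day 2 (-0.30 ± 0.08, limma adjusted p = 0.0346) and was not called at day 11 (0.18 ± 0.08, adjusted p = 0.183). Whether its probes lie in the deleted part was not given, so this does not check the labels. Siglecf, which encodes the gated marker Siglec-F, had 7.13 and 7.46 in KO and 9.85 and 9.9 in WT at day 2, and 8.73 and 8.85 in KO and 10.9 and 10.73 in WT at day 11. Of 14 measured alveolar macrophage markers, 1 was called higher and 10 lower in KO at day 2, and 1 higher and 7 lower at day 11 (limma, adjusted p under 0.05). Of 10 monocyte markers, 9 were higher and none lower at day 2, and 7 were higher and none lower at day 11. Of 10 dendritic cell markers, 5 were higher at day 2 and 2 at day 11, and none was lower. The sum of their linear signals was 2284 to 2494 in KO and 994 to 1012 in WT at day 2, and 1689 to 2091 in KO and 1130 to 1248 in WT at day 11. The 2 called at day 11 were Clec9a (3.05 ± 0.18) and Irf4 (1.93 ± 0.30, limma adjusted p = 3.21e-05 and 0.00318). The median difference of the list was 0.64 at day 2 and 0.03 at day 11. The part of these cell types in the results below was not tested. In these sorted pools, fewer cells of a type and less RNA per cell cannot be told apart.

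At day 2 the KO cells already carried more transcript of most of these genes. By limma, 8 of the 10 were called higher, none was called lower, and 6 of the 8 were at least 2-fold higher. Over all genes, 20.1% were called at day 2, 8.86% higher and 11.2% lower, and 3.7% were called with at least a 2-fold difference, 2.58% higher and 1.12% lower. Genes with large day 11 rises were often higher at day 2 as well. Of 341 other genes called and at least 2-fold higher at day 11, 302 were called higher at day 2 (88.6%). Of those 341, 64.2% were called at least 2-fold higher at day 2. A share of 8 in 10 therefore does not set these genes apart from other genes with day 11 rises. The sets are unlike, as Fn1 (0.56) and Papss1 (-0.42) were not at least 2-fold higher at day 11. The choice was made around day 11 rises and not day 2 values, but with earlier results of these data known. The day 2 calls are therefore not independent of the choice, and their tests also use the spread of the day 11 arrays. The median day 2 difference of the 10 was 2.11 on the log2 scale, against -0.0255 over all genes. No such median was computed for the 341 other genes with day 11 rises, so this does not set the 10 apart from them.

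Both KO arrays lay above both WT arrays for 9 of the 10 genes and below them for Papss1, at day 2 and again at day 11. Such separation was common, as 58.2% of all genes did not overlap at day 2 (24.0% higher and 34.2% lower in KO) and 56.3% at day 11 (27.7% higher and 28.7% lower). The same direction at both ages was seen for 30.6% of genes, 13.1% higher and 17.5% lower. At day 11, 8 of the 10 were at least 2-fold higher by group means alone, which follows from how they were chosen. Of all genes, 3.45% were called with at least a 2-fold difference there, 1.85% higher and 1.6% lower. These shares are stricter than the count of 8, since they also need an adjusted p under 0.05. Group means were lower at day 11 than at day 2 for 7 genes in WT and higher for 7 genes in KO. A choice made on day 11 signals itself favours this pattern, so it is a description. Over all genes the median day 11 minus day 2 difference was -0.0115 in WT and 0.008 in KO. Both counts include Fn1, whose changes were small, -0.15 ± 0.06 in WT and 0.08 ± 0.06 in KO.

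**Figure D1:**
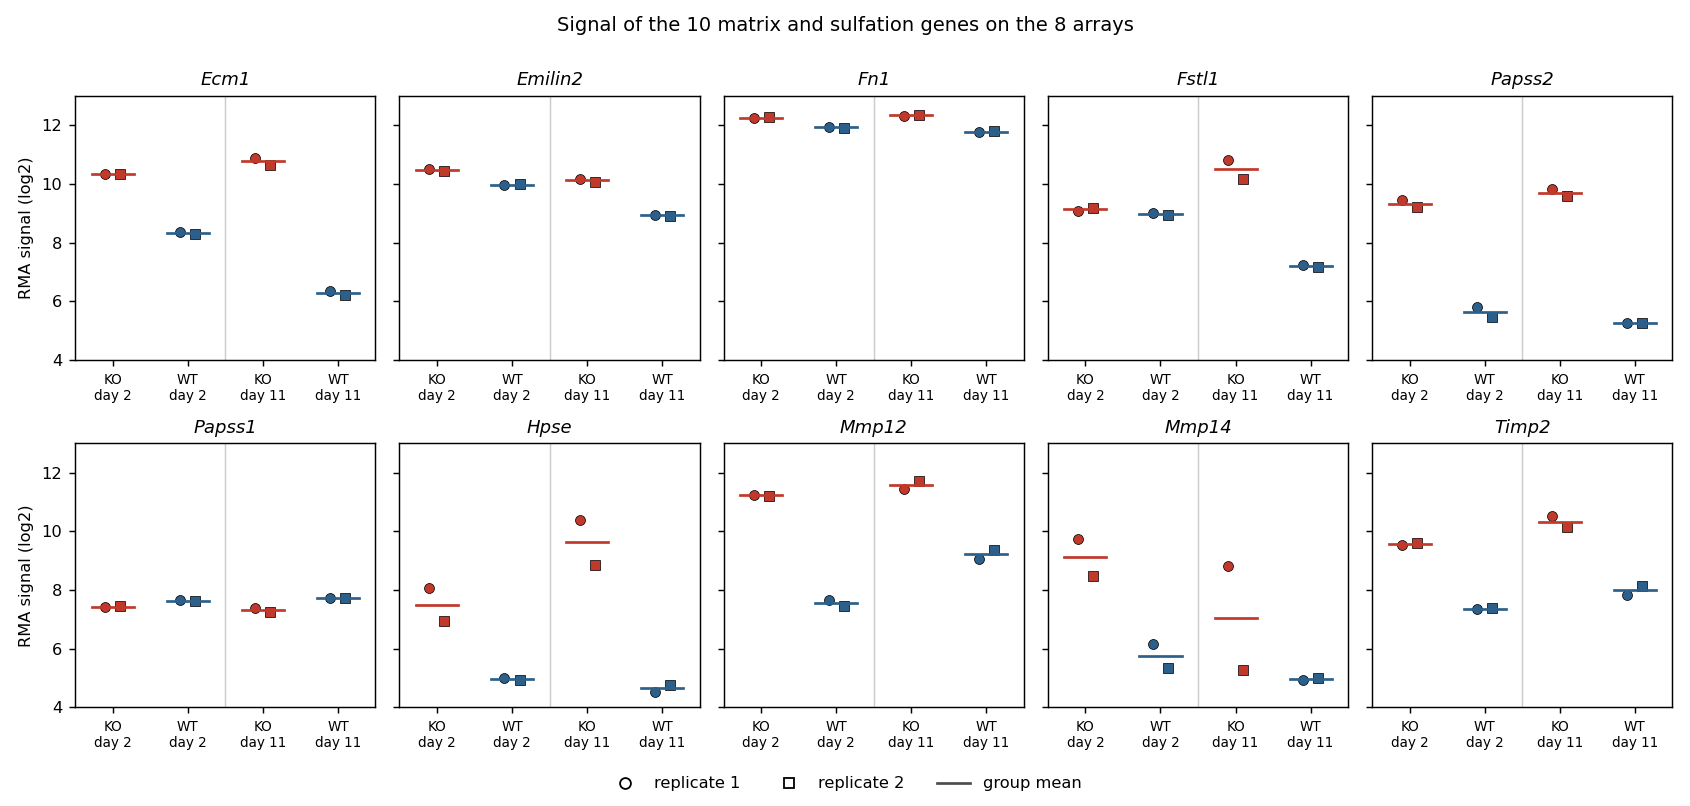
RMA signal (log2) of each of the 10 genes on the 8 arrays, by genotype and age. Circles are replicate 1, squares replicate 2 and lines the means of 2 arrays. Papss1 is the single gene with KO below WT at both ages, and Mmp14 and Hpse show wide gaps between KO pools.

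The matrix glycoproteins came first. Ecm1, a secreted glycoprotein that binds other matrix proteins, had signals of 10.33 and 10.34 in KO and 8.36 and 8.28 in WT at day 2, and 10.88 and 10.65 in KO and 6.35 and 6.21 in WT at day 11. The KO arrays lay above the WT arrays at both ages. The day 2 difference was 2.01 ± 0.09 on the log2 scale, 4.03-fold (SE, n = 2 arrays per group, limma adjusted p = 9.48e-06). At day 11 it was 4.49 ± 0.09, or 22.4-fold. Of the 18782 genes, 3 had a larger rise and 2 a fall of larger size there. Most of this widening lay on the WT side, where day 11 was lower than day 2 by a difference of -2.04 ± 0.09, while KO day 11 minus KO day 2 was 0.43 ± 0.09.

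Emilin2, a glycoprotein found where elastin meets microfibrils, also had KO above WT at both ages, by smaller differences. It had 10.5 and 10.43 in KO and 9.95 and 9.98 in WT at day 2, and 10.18 and 10.06 in KO and 8.95 and 8.9 in WT at day 11. It rose in KO at day 2 by 0.50 ± 0.07 (adjusted p = 0.0015, limma), and the day 11 difference was 1.20 ± 0.07, or 2.29-fold. The WT day 11 minus day 2 difference was -1.04 ± 0.07 and that of KO was -0.34 ± 0.07, so the means were lower at day 11 in both genotypes and more so in WT.

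Fn1 encodes fibronectin, to which cells bind through integrins. It had 12.24 and 12.28 in KO and 11.94 and 11.92 in WT at day 2, and 12.32 and 12.36 in KO and 11.76 and 11.8 in WT at day 11. The groups did not overlap at either age, though the differences were small, a rise of 0.33 ± 0.06 at day 2 (1.26-fold, limma adjusted p = 0.00591) and a difference of 0.56 ± 0.06 at day 11 (1.47-fold). Its group means lay at percentiles 99.4 to 99.9 of all genes, and whether signals so near the top of the range understate a difference was not tested.

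Fstl1, a secreted relative of follistatin and SPARC that modulates BMP signalling and is needed for lung development in mice, had another time course. Its signals at day 2 were 9.07 and 9.19 in KO and 9.02 and 8.94 in WT. At day 11 they were 10.83 and 10.16 in KO and 7.22 and 7.18 in WT. No difference was called at day 2 (0.15 ± 0.18, 95% interval -0.27 to 0.57, limma adjusted p = 0.648), which leaves room for a difference of up to 0.57. The fit shares 1 spread among the 4 groups, so this interval holds the KO day 11 gap of 0.67 and does not measure day 2 alone. At day 2 the pools differed by 0.11 in KO and 0.07 in WT. The day 11 difference was 3.30 ± 0.18, or 9.83-fold. WT day 11 minus day 2 was -1.78 ± 0.18 and KO day 11 minus day 2 was 1.36 ± 0.18, so the means parted in opposite directions. The day 11 minus day 2 gap between the genotype differences, 3.15 ± 0.26, was the largest positive one of the 18782 genes, and 12 genes had a negative one of larger size. This is a description, since it holds the contrast used to choose the gene.

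Markers of fibroblasts and smooth muscle, which make many of these proteins in lung, had few calls. Of 14 such genes measured, none was called at day 2, and at day 11 Acta2 rose (0.52 ± 0.08, adjusted p = 0.00355) and Tagln fell (-0.24 ± 0.06, adjusted p = 0.0263, limma). The sum of their linear signals was 677 to 725 in KO and 665 to 682 in WT at day 2, and 623 to 667 in KO and 622 on both WT arrays at day 11. Of the 14, 8 were below the array median on all 8 arrays, among them Dcn, Lum and Pdgfra, while Acta2 and Col1a1 were above it on all 8, at 7.1 to 7.81 and 6.11 to 6.46. Of 10 endothelial markers, 3 were higher and none lower in KO at day 2, and 1 higher and 1 lower at day 11. The 3 were Pecam1 (1.68 ± 0.10), Cdh5 (0.50 ± 0.07) and Kdr (1.68 ± 0.40, limma adjusted p = 2.98e-05, 0.00191 and 0.0206). Of 12 epithelial markers, 1 was called higher and 2 lower at day 2, and 1 higher and 3 lower at day 11. The part of all these cell types in the glycoprotein results was not tested. Of 28 collagens, 1 was called higher (Col14a1, 0.91 ± 0.12, adjusted p = 0.0016) and 1 lower (Col8a2, -0.36 ± 0.06, adjusted p = 0.00494) at day 2, and none higher and 1 lower at day 11 (Col4a2, -0.26 ± 0.07, adjusted p = 0.0293, limma). Housekeeping scaling gave 4 lower at day 2 and 8 lower at day 11. The Col4a2 call was lost without any single day 11 array, at adjusted p = 0.0853 to 0.151.

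The 2 sulfate-activating enzymes went opposite ways. PAPSS enzymes join ATP sulfurylase and APS kinase in 1 protein and make PAPS, the sulfate donor of sulfotransferases. Papss2 had 9.44 and 9.21 in KO and 5.79 and 5.48 in WT at day 2, and 9.82 and 9.59 in KO and 5.25 and 5.27 in WT at day 11. WT signals were thus near the array median of 5.35, where background weighs on a probe set and a fold can be understated. Papss2 rose in KO at day 2 by 3.68 ± 0.13, 12.9-fold (limma adjusted p = 3.07e-06), and 20 genes rose more. The day 11 difference was 4.45 ± 0.13, or 21.8-fold, and the changes with age were small beside it, 0.38 ± 0.13 in KO and -0.38 ± 0.13 in WT.

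Papss1 had 7.41 and 7.44 in KO and 7.66 and 7.62 in WT at day 2, and 7.38 and 7.26 in KO and 7.74 and 7.74 in WT at day 11. KO arrays lay below WT arrays at both ages, by differences of -0.21 ± 0.06 and -0.42 ± 0.06. The day 2 difference was not called (95% interval -0.36 to -0.06, limma adjusted p = 0.0546), but it was called when dim genes were left out (adjusted p = 0.038) and when arrays were scaled on housekeeping genes (adjusted p = 0.0254). Of 9 other genes of sulfate activation and transport, 2 rose and 2 fell at day 2, all by less than 2-fold, and 1 rose at day 11, Slc26a11 (0.34 ± 0.07, limma adjusted p = 0.0113). The day 11 call was lost without WT day 11 replicate 1 or 2 or KO day 11 replicate 2 (adjusted p = 0.0664, 0.0583 and 0.0728) and with housekeeping scaling (0.113). Slc26a11, a lysosomal and plasma membrane anion transporter, rose by 0.70 ± 0.07 at day 2 (adjusted p = 0.000316), and the anion exchanger gene Slc26a6 fell by 0.29 ± 0.07 (adjusted p = 0.0259, limma). The Slc26a6 call was lost without WT day 2 replicate 1 or either KO day 2 array (adjusted p = 0.149, 0.0547 and 0.105). The Golgi PAPS transporter genes split, as Slc35b2 rose by 0.47 ± 0.07 and Slc35b3 fell by 0.54 ± 0.09 at day 2 (limma adjusted p = 0.00168 and 0.00365).

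Of 33 carbohydrate and tyrosine sulfotransferases, 8 rose and 1 fell at day 2, and 6 rose and 1 fell at day 11, with list medians of 0.04 and -0.02. Leaving out 1 array gave 5 to 8 higher at day 2 and 4 to 6 at day 11, and housekeeping scaling gave 3 higher and 4 lower at day 11. At day 11 the share of all genes called was 18.6%, with 9.34% higher and 9.29% lower. Chst14, which sulfates dermatan, rose by 0.66 ± 0.10 at day 2 and 0.82 ± 0.10 at day 11 (limma adjusted p = 0.00286 and 0.00105). Chst12, which sulfates chondroitin, rose by 0.91 ± 0.14 at day 11 (adjusted p = 0.00261). Hs3st3b1, a heparan sulfotransferase, rose by 1.06 ± 0.17 at day 2 (adjusted p = 0.00369). Chst15, which makes doubly sulfated chondroitin, had 6.36 and 6.37 in KO and 5.81 and 5.89 in WT at day 2, but 4.99 and 4.72 in KO and 6.9 and 7.05 in WT at day 11. It rose by 0.51 ± 0.10 at day 2 (adjusted p = 0.008, and 0.0591 without WT day 2 replicate 1) and fell by 2.12 ± 0.10 at day 11 (adjusted p = 1.32e-05, limma), a difference of -2.63 ± 0.14 between the ages (interaction adjusted p = 0.000178). Over all genes, 3.27% had a called interaction, 1.29% positive and 1.99% negative. Interaction p-values of named list genes are a description, since their calls at day 2 or day 11 chose them for naming. Of 11 sulfotransferases of small molecules, 1 rose at day 2 and 1, Sult2b1, fell at day 11 (-0.57 ± 0.09, adjusted p = 0.00317).

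Genes that build the sugar chains moved in both directions. Of 21 genes of heparan and chondroitin chain synthesis, 5 rose and 2 fell at day 2, and 7 rose and 2 fell at day 11 (4 to 7 higher without 1 array, and 4 with housekeeping scaling). Xylt2 and Xylt1, which attach the first sugar to the core protein, rose by 0.84 ± 0.08 and 0.59 ± 0.08 at day 2, and by 1.33 ± 0.08 and 0.58 ± 0.08 at day 11 (largest adjusted p = 0.00145). Ext1, which extends heparan sulfate, rose by 0.59 ± 0.09 at day 11 (limma adjusted p = 0.00323). The 2 that fell at both ages, Chsy1 and Chpf, extend chondroitin, by differences of -0.65 ± 0.07 and -0.80 ± 0.11 at day 11 (adjusted p = 0.000519 and 0.00151). Of 35 proteoglycan cores and hyaluronan genes, 5 rose and 3 fell at day 2, and 3 rose and 2 fell at day 11. Without 1 array these were 3 to 6 higher and 0 to 3 lower at day 2, and 1 to 6 higher and 1 to 2 lower at day 11, where housekeeping scaling gave 6 lower. The syndecan core gene Sdc4 rose by 1.89 ± 0.29 at day 2 (adjusted p = 0.00271) and Sdc3 fell by 0.90 ± 0.16 at day 11 (limma adjusted p = 0.00657).

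Hpse encodes heparanase, the enzyme that cuts heparan sulfate within the chain. Its signals were 8.06 and 6.95 in KO and 4.99 and 4.93 in WT at day 2, and 10.4 and 8.87 in KO and 4.54 and 4.77 in WT at day 11. All WT values were below the array median and all KO values above it. Hpse rose in KO at day 2 by 2.54 ± 0.49, 5.83-fold (limma adjusted p = 0.00816). The call was lost without WT day 2 replicate 2 (adjusted p = 0.0572) and when the prior variance was fitted robustly with a trend (adjusted p = 0.0651). Because the KO pools differed, the day 2 difference was 1.99 without KO day 2 replicate 1 and 3.10 without KO day 2 replicate 2. At day 11 the difference of 4.98 ± 0.49, or 31.6-fold, was the largest rise of the 18782 genes, and 1 gene had a fall of larger size. It was 4.22 without KO day 11 replicate 1, where 5 genes had a larger rise, and 5.75 without KO day 11 replicate 2. KO day 11 minus KO day 2 was 2.13 ± 0.49, and WT day 11 minus WT day 2 was -0.31 ± 0.49.

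Of 17 other enzymes of heparan and chondroitin breakdown, 1 rose and none fell at day 2, and 6 rose and 1 fell at day 11. Leaving out 1 array gave 0 to 1 higher and 0 to 2 lower at day 2 and 2 to 5 higher at day 11, and housekeeping scaling gave 3 lower at day 2, and 2 higher and 2 lower at day 11, so no direction is drawn for this list. The lysosomal sulfatase gene Arsg rose by 0.92 ± 0.10 at day 11 (limma adjusted p = 0.000524) and was not called at day 2 (-0.15 ± 0.10, adjusted p = 0.363), with an interaction of 1.07 ± 0.14 (adjusted p = 0.00866). Naglu, which removes a sugar from the end of heparan chains, rose by 0.59 ± 0.11 at day 11 (adjusted p = 0.0077, and 0.0509 without KO day 11 replicate 1). Hpse2, the paralog of Hpse that lacks its cutting activity, differed by 0.07 at day 2 and -0.02 at day 11 and was below the median on every array.

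**Figure D2:**
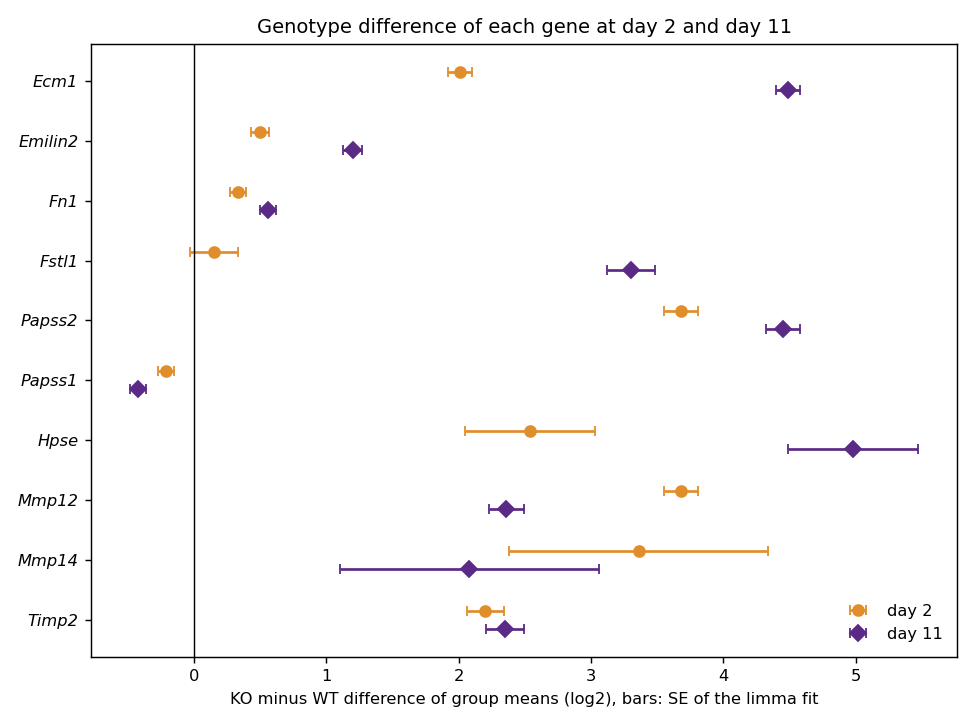
KO minus WT difference of group means (log2) at day 2 (circles) and day 11 (diamonds), with SE from the limma fit of 8 arrays. Ecm1, Fstl1 and Hpse have larger values at day 11 (4.49, 3.30 and 4.98) than at day 2 (2.01, 0.15 and 2.54), and Mmp12 has the smaller value at day 11 (2.36 against 3.68).

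Among the metalloproteinases, Mmp12 encodes macrophage elastase. It had 11.25 and 11.21 in KO and 7.66 and 7.44 in WT at day 2, and 11.45 and 11.7 in KO and 9.05 and 9.38 in WT at day 11. Mmp12 rose in KO at day 2 by 3.68 ± 0.13, 12.8-fold (limma adjusted p = 3.41e-06), and the day 11 difference was 2.36 ± 0.13, or 5.14-fold. The KO signal was near 11 at both ages, with a day 11 minus day 2 difference of 0.34 ± 0.13. In WT that difference was 1.66 ± 0.13, so the genotypes lay closer at day 11 although KO stayed above WT on every array. The KO means lay at percentiles 98.4 (day 2) and 99.1 (day 11) of all genes, and whether a ceiling of signal had a part in this was not tested.

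Mmp14 encodes a membrane-bound metalloproteinase that activates the secreted proenzyme of Mmp2, with TIMP2 as the bridge between the 2 proteins. Its signals were 9.75 and 8.48 in KO and 6.17 and 5.33 in WT at day 2. At day 11 they were 8.82 and 5.28 in KO and 4.93 and 5.02 in WT, so that 1 KO pool was near the WT pools and the other far above them. The day 2 rise was 3.36 ± 0.98, 10.3-fold (95% interval 1.10 to 5.63, limma adjusted p = 0.047). That call was lost without WT day 2 replicate 1 (adjusted p = 0.116), WT day 2 replicate 2 (0.218), KO day 2 replicate 1 (0.179), KO day 2 replicate 2 (0.0577) or either WT day 11 array (0.08), with the robust trended prior (0.187) and with all probe sets in the adjustment (0.0651). Its value was 2.73 without KO day 2 replicate 1 and 4.0 without KO day 2 replicate 2. The day 11 difference of 2.08 ± 0.98 was 0.31 without KO day 11 replicate 1 and 3.84 without KO day 11 replicate 2.

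The gap between the KO day 11 pools was 3.53 for Mmp14, an 11.6-fold difference between arrays of 1 group that 0.016% of genes equalled or exceeded. Because the 4 groups share 1 spread in the fit, this gap also widens the SE of the day 2 difference of Mmp14. The 2 genes with larger gaps were Xist and Mmp2, and the next after Mmp14 were Igf2r and Tmeff1 (chosen after their values were seen). Mmp2, the gelatinase whose proenzyme MMP14 activates, had 9.68 and 5.61 in KO and 5.51 and 5.38 in WT at day 11, and 5.87 and 5.58 in KO and 5.48 and 5.53 in WT at day 2. Mmp2 was thus near the array median on every array except KO day 11 replicate 1, and no genotype difference was called at day 11 (2.20, limma adjusted p = 0.214). Igf2r, the mannose 6-phosphate receptor, had 8.24 and 5.57 in the KO day 11 pools and 4.81 and 4.97 in the WT day 11 pools. Hpse and Fstl1 were also higher in replicate 1 of the KO day 11 pools, by gaps of 1.53 and 0.67. Hpse and Mmp14 were higher in replicate 1 of the KO day 2 pools too, by 1.11 and 1.27, while the other 8 genes differed there by at most 0.23. The largest gaps between the KO day 2 pools were those of Rsad2 (10.2 and 4.98), Nos2 (9.76 and 4.77), Ifit3 (10.32 and 5.44) and Usp18 (10.07 and 5.66). All were higher in replicate 1, and on the WT day 2 arrays these genes had 4.15 to 5.48. The part of this pool difference in the day 2 results was not tested.

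The pools differed in sex-linked genes as well. Xist was 3.46 in KO day 11 replicate 1 and 10.3 in replicate 2, and the Y-linked gene Eif2s3y was 9.06 and 8.09. At day 2, KO replicate 1 had Xist at 10.68 and Eif2s3y at 4.05, and KO replicate 2 had 9.85 and 8.19. In the WT day 2 pools Xist was 10.44 and 3.38 and Eif2s3y 6.92 and 8.75, and in the WT day 11 pools Xist was 9.99 and 9.86 and Eif2s3y 8.13 and 8.16. Mmp14 was higher in the KO day 11 pool with low Xist, but lower in the WT day 2 pool with low Xist (5.33, against 6.17 in the other), and higher in the KO day 2 pool with low Eif2s3y. The part of sex in these gaps was not tested.

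**Figure D3:**
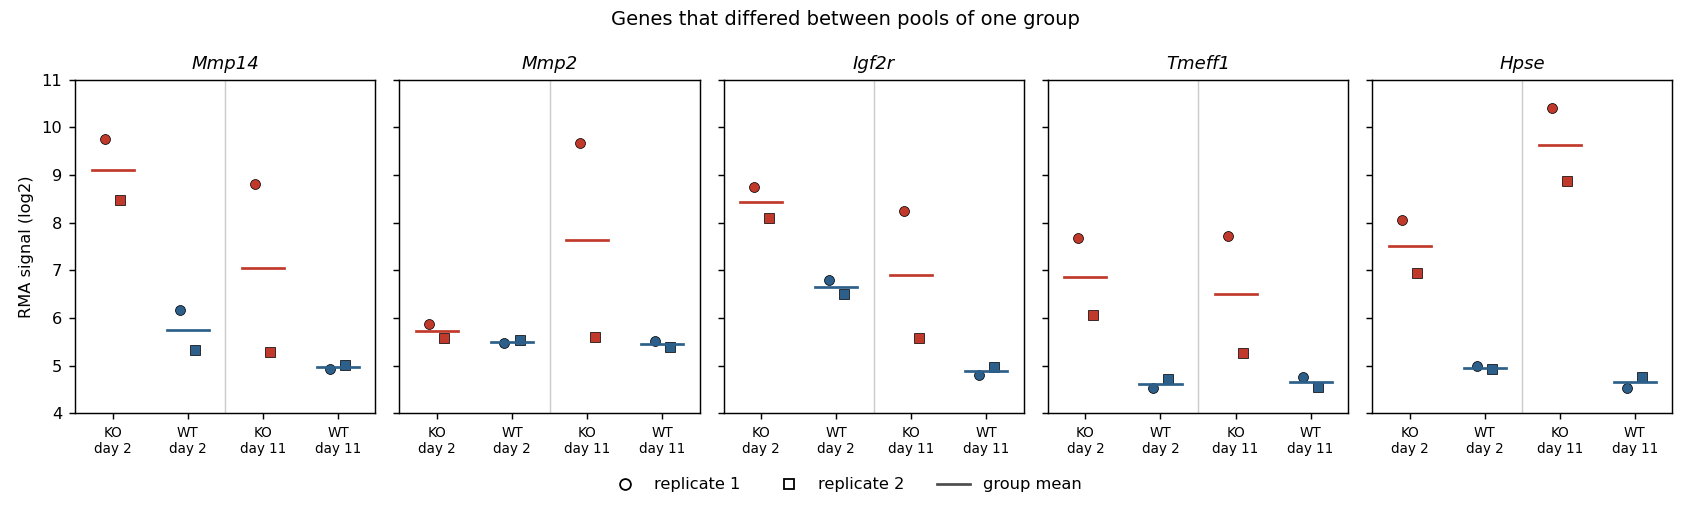
RMA signal (log2) of Mmp14, Mmp2, Igf2r, Tmeff1 and Hpse on the 8 arrays, circles for replicate 1, squares for replicate 2 and lines for means of 2 arrays. In the KO day 11 group replicate 1 lies above replicate 2 in all 5 panels, and Mmp2 is high on that array alone (9.68).

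Timp2, an inhibitor of metalloproteinases that also takes part in Mmp2 activation, differed less between the KO day 11 pools, by a gap of 0.38 in the same direction. It had 9.53 and 9.62 in KO and 7.34 and 7.4 in WT at day 2, and 10.52 and 10.14 in KO and 7.83 and 8.14 in WT at day 11. It rose in KO at day 2 by 2.20 ± 0.14, 4.61-fold (limma adjusted p = 3.89e-05), and the day 11 difference was 2.35 ± 0.14, or 5.08-fold. The difference between the ages was 0.76 ± 0.14 in KO and 0.62 ± 0.14 in WT, so both genotypes had higher means at day 11. Among 6 other inhibitors, Timp1 rose by 2.36 ± 0.41 at day 2 (adjusted p = 0.00491) and was not called at day 11 (0.70, adjusted p = 0.319), and Pzp, an inhibitor of the α2-macroglobulin family, fell by 0.86 ± 0.06 at day 11 (limma adjusted p = 8.09e-05).

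Of 17 other matrix metalloproteinases, 4 rose and 1 fell at day 2, and 2 rose and none fell at day 11 (1 to 3 higher without 1 array). Mmp8, a collagenase, had 10.5 and 10.79 in KO and 6.22 and 6.26 in WT at day 2, a rise of 4.40 ± 0.14, and the day 11 rise was 3.23 ± 0.14 (limma adjusted p = 2.37e-06 and 1.13e-05). Mmp9, a gelatinase, rose by 1.86 ± 0.13 at day 2 (adjusted p = 6.31e-05) and differed by 0.09 at day 11 (adjusted p = 0.731). Mmp8 and Mmp9 are also neutrophil markers. Of 12 neutrophil markers measured, 8 rose and 1 fell at day 2, and 2 rose and 2 fell at day 11, with median differences of 0.87 and -0.01. Without Mmp8 and Mmp9, the linear signals of the other 10 summed to 1251 to 1392 in KO and 734 to 746 in WT at day 2. At day 11 they summed to 564 to 713 in KO and 688 to 722 in WT, where the groups overlapped. That sum joins opposite calls, as S100a8 rose by 1.33 ± 0.15 while Csf3r fell by 1.27 ± 0.21 and Cxcr2 by 0.67 ± 0.18 (limma adjusted p = 0.000684, 0.00381 and 0.0399). The part of neutrophils in the metalloproteinase results was not tested.

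Of 25 ADAM and ADAMTS proteases, 7 rose at day 2 and 5 at day 11, and none was called lower. Without 1 array these were 4 to 7 and 3 to 5, and housekeeping scaling gave 5 and 3 higher, with none lower at day 2 and 5 lower at day 11. Adam8, a myeloid sheddase, rose by 3.45 ± 0.21 and 2.26 ± 0.21 at the 2 ages (adjusted p = 3.05e-05 and 0.000228), and Adam15 by 1.01 ± 0.09 and 1.73 ± 0.09 (limma adjusted p = 0.000167 and 1.75e-05). Adamdec1, a secreted ADAM-like protease of macrophages and dendritic cells, rose by 2.11 ± 0.22 at day 2 (adjusted p = 0.000444) and was not called at day 11 (-0.55 ± 0.22, adjusted p = 0.144), but was called lower there without KO day 11 replicate 2 (adjusted p = 0.0403) and with housekeeping scaling (adjusted p = 0.0395). In the plasminogen system, 3 of 9 rose and 1 fell at each age (1 to 3 higher and 1 to 2 lower at day 11 without 1 array). Plau, the urokinase gene, rose by 2.10 ± 0.10 and 2.24 ± 0.10, and Anxa2, a surface receptor for plasminogen and its activator, fell by 0.52 ± 0.07 and 0.68 ± 0.07 (largest adjusted p = 0.00191).

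The remaining matrix lists held a few large differences among many small ones. Of 30 other glycoproteins of the fibronectin, laminin and matricellular list, 3 rose and 2 fell at day 2, and 4 rose and 2 fell at day 11. Thbs1, thrombospondin 1, which can activate TGF-β, rose by 2.06 ± 0.21 and 2.44 ± 0.21 (limma adjusted p = 0.00041 and 0.000188). Ccn3, a matricellular protein, rose by 3.02 ± 0.32 at day 11 (adjusted p = 0.00043). Matn2, a matrilin that links matrix filaments, fell by 1.97 ± 0.11 and 1.91 ± 0.11, and Sparc, a collagen-binding relative of Fstl1, fell by 0.72 ± 0.12 at day 11 (largest adjusted p = 0.00366). Emilin1, the paralog of Emilin2, fell by 0.58 ± 0.08 at day 2 (limma adjusted p = 0.00186), opposite to the rise of Emilin2, and it was the single called gene of 17 in the elastin, fibrillin and EMILIN list at that age. Of 18 genes of matrix crosslinking and modification, 1 rose and 2 fell at each age. P4ha1, a collagen prolyl hydroxylase, rose by 0.81 ± 0.10 and the transglutaminase gene Tgm2 fell by 0.93 ± 0.11 at day 11 (adjusted p = 0.000923 and 0.000928).

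**Figure D4:**
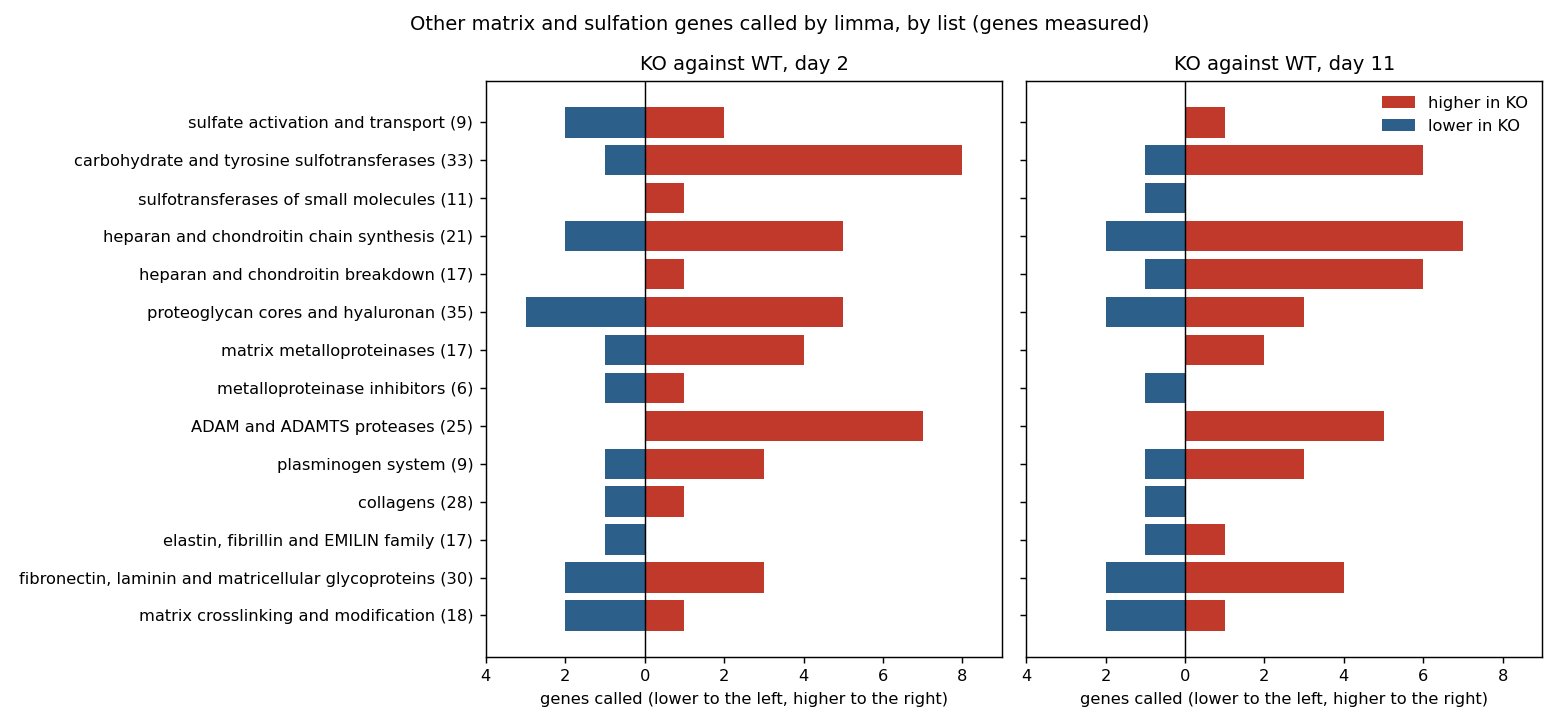
Number of genes in each list called higher (right, red) or lower (left, blue) in KO by limma at adjusted p under 0.05, at day 2 and day 11, without the 10 genes described above. Numbers in brackets are genes measured. Sulfotransferases had 8 higher and 1 lower at day 2, and chain synthesis had 7 higher and 2 lower at day 11.

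Over all 276 other genes of these lists, 15.2% were called higher and 6.16% lower at day 2, and 14.1% higher and 5.43% lower at day 11, with median differences of 0.0 and -0.01. The shares over all genes were 8.86% higher and 11.2% lower at day 2 and 9.34% higher and 9.29% lower at day 11. Leaving out 1 array gave 31 to 44 of the 276 higher and 10 to 18 lower at day 2, in place of 42 and 17, and 24 to 41 higher and 11 to 16 lower at day 11, in place of 39 and 15. Housekeeping scaling gave 39 higher and 28 lower at day 2 but 25 higher and 50 lower at day 11, so the day 11 split turned. The splits over all genes depend on scaling too, since arrays centred on 15 housekeeping genes gave 32.1% of called genes higher at day 2, where the deposited values gave 44.1%, and 19.7% at day 11, where they gave 50.1%. That scaling moved the median of all genes to -0.0955 at day 2 and -0.157 at day 11, and no genotype difference of the 10 genes changed sign under it or any other alternative.

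The patterns over the 8 arrays were set beside those of other genes, by the root mean square (RMS) difference of centred log2 signals. The 10 genes themselves were barred as neighbours, and so were gene models without a proper symbol, microRNA genes and small RNA genes. Ecm1 was nearest to Car6, a secreted carbonic anhydrase (RMS 0.30), and to S100a6, a calcium-binding protein (0.35). Papss2 was nearest to the potassium channel gene Kcnn4 (0.25) and to Plcb4, a phospholipase C (0.45). Mmp12 was nearest to the transcription factor gene Irf4, one of the dendritic cell markers above (0.30), and to Qpct, a glutaminyl cyclase (0.31). Timp2 was nearest to Apbb2 and Gdpd1 (0.22 each), Emilin2 to Zdhhc14 and the glucose transporter gene Slc2a1 (0.11 and 0.12), Fn1 to the phosphate transporter gene Slc20a2 and the transcription factor gene Mef2a (0.04 and 0.05), and Papss1 to Bcs1l and Neto2 (0.03 and 0.04). By this measure, which grows with the size of a gene's own changes, the nearest genes lay further off for Fstl1, Mmp14 and Hpse. Over the 8 arrays, r with the nearest gene was 0.97, 0.96 and 0.94 for them, against 0.98 for Papss1 and 0.99 for Fn1. Fstl1 was 0.43 from Fabp7 and 0.49 from Syngr1, Mmp14 was 0.54 from the interferon-inducible gene Ifi209 and 0.55 from the chemerin receptor gene Cmklr1, and Hpse was 0.79 from Elovl7 and 0.85 from Pmp22. Ifi209 had 9.51 and 7.89 in KO at day 2 and 7.34 and 5.77 in KO at day 11, so its KO pools differed in the same direction as those of Mmp14.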

How the data were processed

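RNA of sorted lung macrophages was measured on 8 Affymetrix arrays, 2 per group. The authors deposited log2 signals, and the submitters' processing notes name RMA and R 2.15.2. RMA corrects background, equalises array distributions and summarises probes. The summary level was not given in the sources used here, and detection calls were not used here. Of 28874 probe sets, 21159 had 1 symbol in GEO's platform annotation, 1881 had several and 5834 had none. The probe set with the highest mean was kept, which left 18782 genes. No filter on low values was applied.

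Linear models (limma 3.58.1, R 4.3.3) fitted 1 mean per group over 8 arrays, with 1 spread per gene shared by the 4 groups. A wide gap in 1 group therefore widens the SE of every contrast of that gene. Benjamini-Hochberg adjustment was over all genes, and genes were called at an adjusted p under 0.05. ± is the SE of a log2 difference. The fit was tested on simulated data. The 10 genes were chosen on the day 11 contrast, so no p-value is given for them there or for contrasts that use day 11 arrays. The genes, lists and tests were chosen with earlier results of these data known. Named list genes were the 2 largest called rises and 2 largest called falls per list and age without overlap of arrays, of which those that kept their call are preferred in the text, and the 2 nearest genes of each of the 10. Nothing says which litters the pools came from, so p-values measure the spread between pools. Promoter windows are RefSeq's on GRCm38.p6. Python 3.11.15 and matplotlib 3.10.9 made the figures.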

Additional observations from a re-analysis of the deposited data

Results flagged for a closer look

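Of 51 list genes named by the rule, 9 had a genotype difference at day 11 unlike that at day 2. The call was made on limma's interaction term at an adjusted p under 0.05, which 3.27% of all genes passed. The rule named genes by their calls at these ages, so the term holds a contrast that chose them and its p-values are a description. The term was not followed gene by gene under the alternatives below. Values are the day 11 difference minus the day 2 difference on the log2 scale. It was -2.66 for the protease gene Adamdec1 (adjusted p = 0.00533), -2.63 for the chondroitin sulfotransferase gene Chst15 (adjusted p = 0.000178), -1.77 for Mmp9 (adjusted p = 0.00333), -1.17 for Mmp8 (adjusted p = 0.0244), -0.95 for Mmp13 (adjusted p = 0.043) and -0.62 for Pzp (adjusted p = 0.0125). It was 0.72 for Adam15 (adjusted p = 0.0241), 1.07 for the sulfatase gene Arsg (adjusted p = 0.00866) and 1.51 for the proteoglycan gene Cspg4 (adjusted p = 0.0391). Of these, Chst15 was called in opposite directions at the 2 ages. None of the 10 genes of the report had KO and WT arrays that parted in opposite directions at the 2 ages.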

How the results depend on the processing

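Under 16 alternatives, 8 of which left out an array, the 10 genes kept the sign of their genotype difference at both ages, and 6 to 9 of them were called at day 2. Leaving out an array gave 2223 to 3605 genes called at day 2 in place of 3774, 2059 to 3760 at day 11 in place of 3500, and 197 to 942 for the interaction in place of 615. The lone array of a group was then assumed to vary like the others. Housekeeping scaling gave 5398 called genes at day 11. With the replicate number as a replicate block, 3692 genes were called at day 2, 3415 at day 11, 558 for the interaction, and 8 of the 10. The numbers were not taken as pairs, since same-numbered arrays deviated with r from -0.075 to 0.25 between groups. Of 76 called differences of 51 named list genes, 25 were lost under at least 1 alternative, at adjusted p from 0.0509 to 0.244. Of 896 recomputed counts of list genes called in a direction, 162 moved by over 1.5 times. Reversed values were small. With housekeeping scaling, Fn1 had -0.04 for KO day 11 minus KO day 2 (an alternative chosen after seeing the data, like all those on differences between ages), and at day 11 Ids had -0.04, Mmp9 -0.06, Slc26a6 -0.08 and Slc35b2 -0.1. Without single arrays, Mmp21 ranged from -0.04 to 0.02 and Slc35b2 from 0.00 to 0.10 at day 11. The housekeeping reversals follow from the shift of all genes by that scaling, and the cause of the others was not tested. The number of arrays, 2 per group, limits precision, and signals near the array median may understate differences. Whether signals near the top of the range, as for Fn1 and KO Mmp12, do so too was not tested.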
